A study of Oryza sativa with 3 samples.

Results

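The comparison set the hybrid rice LYP9 beside its seed parent PA64s, using peaks of 5-hydroxymethylcytosine (5hmC) capture on the 12 nuclear chromosomes. All 3489 LYP9 and 2396 PA64s peaks of chromosomes 1 to 12 entered it, 5885 of the 10250 peaks listed in the series, and peaks of the chloroplast and mitochondrial sequences were left out. A peak was shared where it overlapped a peak of the other list by at least 1 bp, and otherwise belonged to one list only. LYP9 is the F1 hybrid of PA64s, a male-sterile line, and the pollen parent 93-11, an indica cultivar. The series holds 1 library of each of these 3 lines, from field-grown panicles 3 to 4 mm long, with no treatment named and no replicate. Differences between the lines therefore have no replicate check, and no test of them was possible. The labels do not say how many plants or panicles made up a library.

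5hmC is an oxidation product of 5-methylcytosine, the common DNA methylation mark. In mammals TET dioxygenases make it and it can be a step in the removal of methylation, whereas in plants it is scarce and how it forms is unsettled. In rice, 5-methylcytosine is concentrated in transposable elements and heterochromatin. In the capture that the labels describe, a glucosyltransferase attaches a modified glucose to 5hmC, biotin is joined to that sugar, and the tagged fragments are collected on streptavidin. The labels list an antibody against 5hmC too, and describe its use in dot blots; the capture chemistry was taken here as the source of the libraries. An F1 hybrid carries a haploid nuclear genome from each parent.

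PA64s had the deeper library and the shorter list. LYP9 had 10078296 tags and PA64s 11948210, so LYP9 had 0.843 times as many tags and 1.46 times as many nuclear peaks. The height of a peak is its pileup, the number of extended tags at its summit as MACS, the authors' peak caller, gave it, and it is given here also per 1000000 tags of the library, as ppm. The lowest listed peak had 10 tags (0.992 ppm) in LYP9 and 11 tags (0.921 ppm) in PA64s. No control library was used, so a place that collects tags for any other reason is listed in the same way. Genome coordinates are those of the files, and neither labels nor headers name the genome build, so no gene, annotation or sequence is given for any region.

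A minority of the hybrid's peaks were found in PA64s, while most PA64s peaks were found in the hybrid. Of the LYP9 peaks, 1583 were shared (45.4%, exact Clopper-Pearson 95% interval 43.7 to 47.0) and 1906 were in LYP9 only. Of the PA64s peaks, 1594 were shared (66.5%, 64.6 to 68.4) and 802 were in PA64s only. These intervals, like all those below, cover counting error only. The lists differ in length, which by itself makes the shares unequal. When each list was limited to 2396 peaks by the authors' p-value, the shares were 57.7% and 58.2%.

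Shared peaks coincided closely. Among the 1539 pairs in which a single peak met a single peak, summits lay a median of 5 bp apart, and 65.6% lay within 10 bp. Summits were more than 50 bp apart in 9.81% of the pairs. The LYP9 peak was the longer in 961 pairs and the PA64s peak in 527. Median lengths were 121 bp in LYP9 and 111 bp in PA64s. The smallest overlaps were 4 bp, on chromosome 11 between a LYP9 peak ending at 9765205 and a PA64s peak of the same pileup of 29 tags, and 8 bp at a pair on chromosome 10 and another on chromosome 11. Just beyond the limit, peaks of 22 tags in LYP9 and 19 tags in PA64s lay 11 bp apart on chromosome 10, the LYP9 peak ending at 7728197. Of peaks in one list only, 10.9% in LYP9 and 14.3% in PA64s lay within 500 bp of a peak of the other list, and the median distances were 24.3 and 10.1 kb.

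High and long peaks were shared more often than low and short ones in both lists, and at each height the PA64s peaks were found in LYP9 more often than the reverse. Below 1.5 ppm, 13.3% of 527 LYP9 peaks and 26.7% of 405 PA64s peaks were shared. From 2 to 3 ppm the shares were 42.0% of 958 and 78.0% of 668. At 5 ppm and over they were 89.2% of 480 (86.0 to 91.8) and 99.2% of 257 (97.2 to 99.9), so that only 2 PA64s peaks of that height had no LYP9 counterpart against 52 LYP9 peaks without a PA64s counterpart. By length, 28.8% of LYP9 peaks and 56.6% of PA64s peaks under 100 bp were shared. At 200 bp and over the shares were 77.7% and 83.4%. Height classes are on the scale of ppm, and a given height lies further above the calling limit in the deeper PA64s library.

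**Figure D1:**
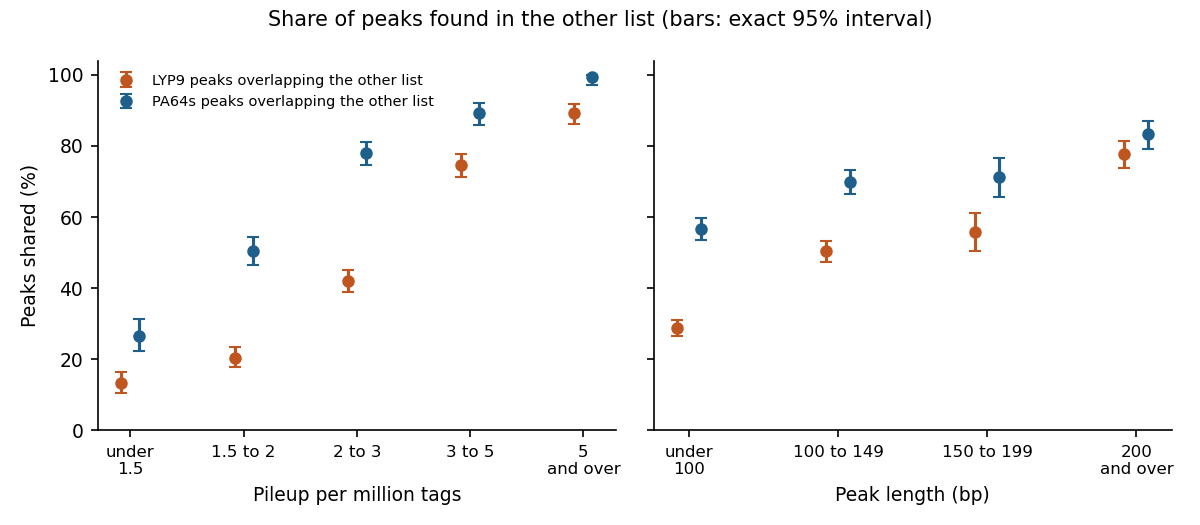
Share of nuclear peaks of each list that overlap a peak of the other list (%), by pileup in ppm (left) and by peak length in bp (right); points are LYP9 peaks (orange) and PA64s peaks (blue), bars are exact 95% intervals over peaks. The share is highest in the top class of each panel, 89.2% and 99.2% by height, and the PA64s points lie above the LYP9 points in every class.

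The chromosomes differed in the share of their peaks that was found in both lists. Chromosome 10 had the highest shared part, 59.0% of 383 LYP9 peaks (53.9 to 64.0) and 76.3% of 295 PA64s peaks (lower bound 71.0). Chromosome 1 had the lowest, 28.2% of 259 LYP9 peaks (22.8 to 34.1) and 42.7% of 171 PA64s peaks (35.2 to 50.5). The intervals of these chromosomes did not overlap in either list. They give the contrast no separate support, since the chromosomes were picked as the extremes of 12 by these same shares. The intervals also treat peaks as independent, while 107 of the 383 LYP9 peaks of chromosome 10 lay at 5 to 6 Mb. Shared LYP9 peaks were also tallest on chromosome 10, at a median of 4.86 ppm, and lowest on chromosome 1, at 2.78 ppm. The part of height in the shares by chromosome was not tested. Chromosome 11 was also low, with 36.8% and 58.5%, and so was chromosome 2, with 33.5% and 60.8%. The ratio of LYP9 to PA64s peaks was highest on chromosome 2, at 1.85 (179 against 97), and lowest on chromosome 3, at 1.25 (184 against 147). Peaks of LYP9 only outnumbered those of PA64s only on each of the 12 chromosomes, by 1.65 times on chromosome 3 to 3.58 times on chromosome 8.

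Peaks in one list only were low in general, but LYP9 had far more tall ones. Their median height was 1.89 ppm in LYP9, against 3.47 for shared LYP9 peaks, and 1.59 in PA64s, against 2.59. The tallest reached 11.7 ppm in LYP9 and 5.52 in PA64s. At 3 ppm and over, 226 of 1165 LYP9 peaks had no PA64s counterpart, and 50 of 701 PA64s peaks had no LYP9 counterpart. The 93-11 list, which took no part in this classification, held a peak at 201 of those 226 and at 6 of those 50. Of the 52 LYP9-only peaks at 5 ppm and over, 20 had a fold enrichment under 5, and of the 2 such PA64s peaks 0. The share among all peaks of that height was not counted, so a low fold cannot be read as particular to LYP9-only peaks.

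Over all heights, 57.0% of the 1906 LYP9-only peaks (54.8 to 59.3) and 16.8% of the 802 PA64s-only peaks (14.3 to 19.6) were listed in 93-11. Shared peaks were listed there in 89.8% of cases, whichever list they were counted from. The LYP9-only peaks found in 93-11 stood at a median of 2.18 ppm in LYP9 and 2.40 in 93-11. The 819 LYP9-only peaks without a 93-11 counterpart were lower, with a median of 1.59 ppm.

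The 6 tallest LYP9-only peaks were all present in 93-11. The tallest, on chromosome 7 from 12136908 to 12137296, had 118 tags in LYP9 and 122 in 93-11, and the nearest PA64s peak was 18.1 kb away. A peak on chromosome 12 from 13404123 to 13404309 had 94 tags in LYP9 and 103 in 93-11. Another on chromosome 12, from 20601021 to 20601167, had 93 and 120. These 3 stood 32.6 to 45.0 times above MACS's background.

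The other 3 of the tallest LYP9-only peaks were a different kind of place. They lay close together on chromosome 4, beginning at 19223652, 19228164 and 19230702, with 113, 92 and 95 tags in LYP9 and 117, 112 and 105 in 93-11. Their fold enrichments were only 1.86, 1.73 and 2.38, since MACS's local background, by which the pileup is divided, was 39.9 to 60.8 tags there against a genome-wide 2.09. Around them LYP9 had 10 peaks in all, 93-11 had 16 and PA64s had 0, and the nearest PA64s peak was at least 401 kb away. In PA64s the highest background at any chromosome 4 peak was 15.3 tags. Background is known only at listed peaks, so the PA64s background within this stretch is not known.

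The 6 tallest PA64s-only peaks were all absent from the 93-11 list, and with 4.69 to 5.52 ppm they were lower than the 9.13 to 11.7 ppm of the 6 LYP9-only peaks. The tallest, from 12005502 to 12005618 of chromosome 12, had 66 tags, and 2 more lay near it, beginning at 11990347 and 11993394, with 59 and 61 tags. The others were on chromosome 1, beginning at 8844253 and 16942201 with 59 and 56 tags, and on chromosome 9, beginning at 2807983 with 59 tags. LYP9 had a peak 457 bp from the first of the flanking chromosome 12 peaks and 570 bp from the tallest, but none within 229 kb of the chromosome 1 peak at 8844253.

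Where both lines had a peak, the hybrid's was usually the higher. Linked overlapping peaks formed 1571 shared regions, and the highest pileup of each list in a region was used. The median region had 35 tags in LYP9 and 31 in PA64s, or 3.47 and 2.59 ppm. The median ratio of LYP9 over PA64s was 1.29, with quartiles of 1.09 and 1.52, and it was above 1 in 1307 regions (83.2%). Even without division by depth the median ratio of pileups was 1.09. The authors' fold enrichment, which divides the pileup by the local background, gave a smaller median ratio of 1.14. Regions enter only if they passed the caller's limit in both libraries, so places with a very unequal signal are missing from these ratios.

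The excess was smaller in low regions. Its median was 1.10 in the 64 regions with a mean height under 1.5 ppm, 1.19 from 1.5 to 2, 1.28 from 2 to 3, and 1.37 in each of the classes from 3 to 5 and from 5 upwards. Low regions lie near the calling limit of both libraries, which bounds the ratios they can show. The highest regions are limited from above. The largest pileup in the LYP9 list was 162 tags, which is the most that extended tags can reach when each strand of a position counts once (the headers allow more), and equals 16.1 ppm in LYP9 and 13.6 ppm in PA64s.

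Of the 5 highest regions, 4 lay at over 90% of that ceiling in a library, where a ratio carries little information. On chromosome 2 from 28714903 to 28715047 the pileups were 162 in LYP9 and 160 in PA64s. On chromosome 3 from 28639272 to 28639451 they were 159 and 160. On chromosome 6 from 31160 to 31426 the heights were 14.8 and 12.9 ppm, and a second chromosome 2 region, from 28715603 to 28715912, had 14.8 and 13.3 ppm. The last, below that limit, was on chromosome 10 from 5143643 to 5143855. It had 143 and 131 tags, a ratio of 1.29 (1.01 to 1.65), and stood on a high background, with fold enrichments of 5.07 and 5.54. If both libraries reached such a ceiling the ratio in ppm would be 1.19.

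**Figure D2:**
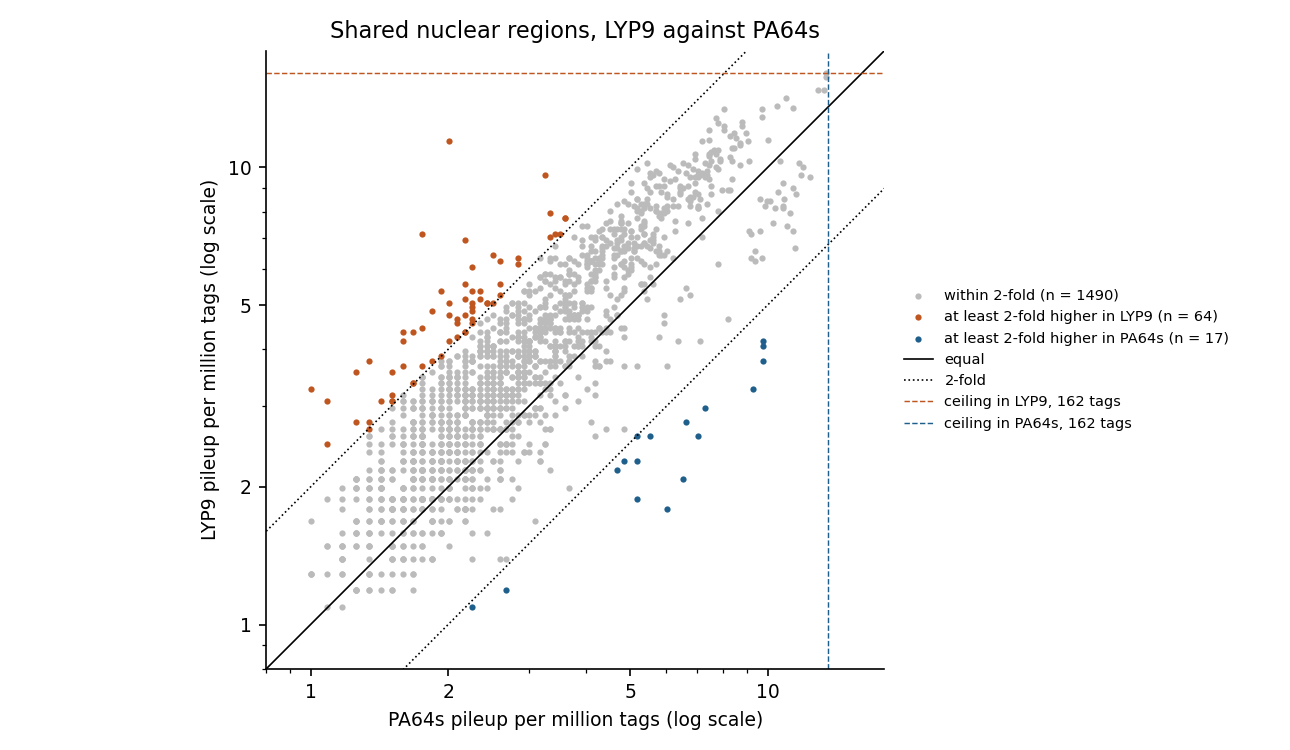
Pileup in ppm of each of the 1571 shared regions in LYP9 (vertical axis, log scale) against PA64s (horizontal axis, log scale); colours mark regions at least 2-fold higher in one line, dotted lines are 2-fold, the solid line is equality, and dashed lines mark 162 tags in each library. Most points lie above equality, at a median ratio of 1.29, and 64 and 17 regions lie beyond the 2-fold lines.

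Large differences were few and ran mainly towards the hybrid. At least 2-fold higher in LYP9 were 64 shared regions (4.07%), and at least 2-fold higher in PA64s were 17 (1.08%). After the ratios were centred on their median, which takes out the general shift of 0.37 on the log2 scale, the numbers were 14 and 30, so which line had more of them depended on the scaling. On the uncentred scale the ratios nearest to the limits were 2.001 and 1.997 on the LYP9 side and 0.497 and 0.519 on the PA64s side. For each region an exact interval of the ratio was taken from its 2 pileups. This interval excluded 1 at all 64 regions of the LYP9 group. In the PA64s group it did so at 16 of the 17 regions, all but the one with the lowest counts, 11 and 27 tags. The regions were chosen by the ratio of these same 2 pileups, so the intervals give the calls no separate support.

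The regions higher in LYP9 occurred on every chromosome, beside a share of 4.07% of all shared regions. Chromosome 10 had 13 of its 224 shared regions (5.80%), chromosome 6 had 10 of 128 (7.81%) and chromosome 11 had 9 of 105 (8.57%). Their pileups ranged from 25 to 115 tags in LYP9, with a median of 48, and from 12 to 43 in PA64s, with a median of 25. All 64 were listed in 93-11 as well, beside 90.1% of all shared regions. Their median height was 4.76 ppm in LYP9, 2.09 in PA64s and 4.75 in 93-11. The gap between LYP9 and PA64s is the one by which these regions were chosen, whereas the 93-11 level was not used to choose them. By fold enrichment 40 of the 64 were still at least 2-fold higher in LYP9.

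The most unequal region lay on chromosome 1, from 16745807 to 16746133. It reached 115 tags in LYP9, 24 in PA64s and 136 in 93-11, and the ratio of LYP9 over PA64s was 5.68 (95% interval 3.64 to 9.23). On chromosome 10 a region from 7246644 to 7246788 had 72 tags in LYP9 against 21 in PA64s, a ratio of 4.06 (2.47 to 6.96), with 57 in 93-11. A second region 7.03 kb further on, from 7253821 to 7253945, had 70 against 26, with 60 in 93-11. Both chromosome 10 regions were thus low in the same parent.

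The remaining named regions of this group had lower counts. On chromosome 3, from 13387626 to 13387765, the pileups were 97 in LYP9, 39 in PA64s and 98 in 93-11. On chromosome 6, from 10205006 to 10205247, they were 33, 12 and 32, and on chromosome 9, from 11543049 to 11543154, they were 36, 15 and 25. In each of the 6 regions with the highest ratio the PA64s pileup was the lowest of the 3 libraries.

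The 17 regions higher in PA64s were arranged differently. They lay on 7 chromosomes, 5 of them on chromosome 1 and 6 on chromosome 12. These were 6.85% of the 73 shared regions of chromosome 1 and 4.14% of the 145 of chromosome 12, beside 1.08% of all shared regions. The 5 on chromosome 1 all fell between 16852377 and 16948443, and 4 of those on chromosome 12 fell between 11971672 and 12006442. By fold enrichment 5 of the 17 were at least 2-fold higher in PA64s, 0 of the 5 on chromosome 1 and 1 of the 6 on chromosome 12. At the chromosome 1 regions the log2 ratio of folds, LYP9 over PA64s, was −0.71 to −0.04. MACS's background at the 17 regions was also higher in PA64s, with medians of 0.399 ppm against 0.208 ppm in LYP9, and its part in the difference was not tested. Only 3 of the 17 (17.6%, 3.80 to 43.4) were listed in 93-11, beside 90.1% of all shared regions. Their median height was 6.03 ppm in PA64s and 2.58 in LYP9. PA64s peaks were the longer here, with a median of 206 bp against 114 bp in LYP9. In the 64 regions higher in LYP9 the LYP9 peaks were the longer, with a median of 133.5 bp against 100.5 bp in PA64s. Both groups were chosen by pileup, and longer peaks were also higher in general, so these lengths are not a separate trait.

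The lowest ratio was found on chromosome 1, from 16852377 to 16852582, with 18 tags in LYP9 and 72 in PA64s, 3.37 times more in PA64s by ppm (1.99 to 6.01). It lay 106 kb from the chromosome 1 region where LYP9 was 5.68 times higher, the other extreme of the comparison. Other shared regions lay between them. On chromosome 12 the pileups were 21 and 78 from 19476658 to 19476875, 33 and 111 from 11990881 to 11991032, and 19 and 62 from 12002286 to 12002381, the LYP9 value first. On chromosome 6 they were 26 and 84 from 14671536 to 14671860. None of these 5 regions was listed in 93-11.

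A region of chromosome 2 from 28715365 to 28715504 was flanked by regions near the ceiling. It had 38 tags in LYP9 and 117 in PA64s, a PA64s excess of 2.60-fold (1.79 to 3.85) by ppm, and no peak in 93-11. The regions on either side of it, named above among the 5 highest, had ratios of LYP9 over PA64s of 1.20 and 1.11 and pileups of 162 and 161 in 93-11. Both flanking regions stood at over 90% of the ceiling in a list, so their ratios cannot be set against that of the region between them.

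Shared regions absent from 93-11 had a smaller hybrid excess in general. The median ratio of LYP9 over PA64s was 1.08 at the 156 shared regions without a 93-11 peak and 1.33 at the 1415 with one. None of the 156 was 2-fold higher in LYP9 and 14 were 2-fold higher in PA64s, against 64 and 3 of the 1415. The regions without a 93-11 peak were also low, with median heights of 1.89 ppm in LYP9 and 1.84 in PA64s against 3.67 and 2.68. The part that height plays in this difference was not tested.

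By chromosome, the median ratio ranged from 1.19 on chromosome 2 to 1.41 on chromosome 10, and was above 1 on all 12. Chromosome 9 (1.35), chromosome 3 (1.35) and chromosome 11 (1.33) followed chromosome 10, while chromosome 12 (1.22), chromosome 5 (1.25), chromosome 1 (1.25) and chromosome 4 (1.25) were low. The quartiles of all 12 chromosomes overlapped, from 1.25 to 1.63 on chromosome 10 and from 0.975 to 1.43 on chromosome 2. Such quartiles show the spread of single regions and are no test of the medians. Chromosomes 12 and 1 had the widest spread, with lower quartiles of 0.837 and 0.922 and with 64.8% and 67.1% of their regions above 1, against 91.5% on chromosome 10. Some medians rested largely on dense stretches. Of the 224 regions of chromosome 10, 89 lay at 5 to 6 Mb (median 1.46) and 41 at 3 to 4 Mb (1.40). Its other windows of 1 Mb with at least 10 regions had medians of 1.26 to 1.58. Of the 85 regions of chromosome 3, 52 lay at 13 to 14 Mb (1.39).

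The order of the chromosomes rested on the measure. By the authors' fold enrichment the median ratio was highest on chromosome 1 (1.29) and lowest on chromosome 10 (1.02), where it had been highest by pileup in ppm. The local background moved with it. At shared regions of chromosome 10 MACS's background, in ppm, was 1.39 times as high in LYP9 as in PA64s at the median. On chromosome 3 it was 1.35 times as high, and on chromosomes 1, 2, 4, 6, 7, 9, 11 and 12 the median background ratio was 1.00. The dense stretches of chromosomes 10 and 3 named above hold many of the regions behind their values. With no control, this background comes from each library's own tags, and its floor is 0.208 ppm in both libraries. At 468 of the 1571 shared regions both libraries stood within 1% of that floor, which fixes a ratio near 1.00 there. The part of this background in the order of the chromosomes was not tested.

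**Figure D3:**
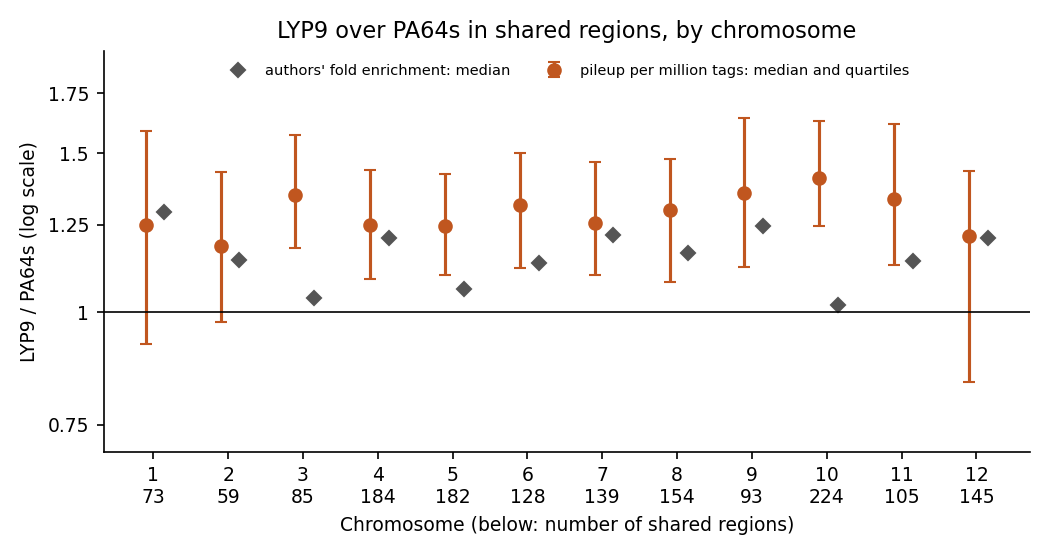
Ratio of LYP9 over PA64s in shared regions for each nuclear chromosome (log scale), with the number of regions under each chromosome; orange points and bars are the median and quartiles of pileup in ppm, grey diamonds the median ratio of the authors' fold enrichments. All medians lie above 1, and the 2 measures lie furthest apart on chromosomes 3 and 10, at 1.35 against 1.04 and 1.41 against 1.02.

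The median ratio rose slightly with the mean peak length. With regions classed by the mean length of their 2 peaks, the median ratio was 1.24 in 424 regions under 100 bp, 1.29 in 603 regions from 100 to under 150 bp, 1.33 in 221 regions from 150 to under 200 bp and 1.35 in 323 regions of 200 bp and over. The quartiles of every class overlapped those of the others, but quartiles show the spread of single regions and are no test of the medians. Heights rose along the same classes, from 2.78 to 4.66 ppm in LYP9 and from 2.26 to 3.60 in PA64s between the shortest and the longest. Among regions of 3 to 5 ppm the 4 length classes had medians of 1.33, 1.38, 1.40 and 1.36.

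The step between short and long peaks depended on whose length set the class. By the length in LYP9 the median was 1.16 under 100 bp and 1.35 at 200 bp and over. By the length in PA64s it was 1.29 and 1.32. By fold enrichment the longest class had the lower ratio, 1.10 against 1.12 for the shortest.

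**Figure D4:**
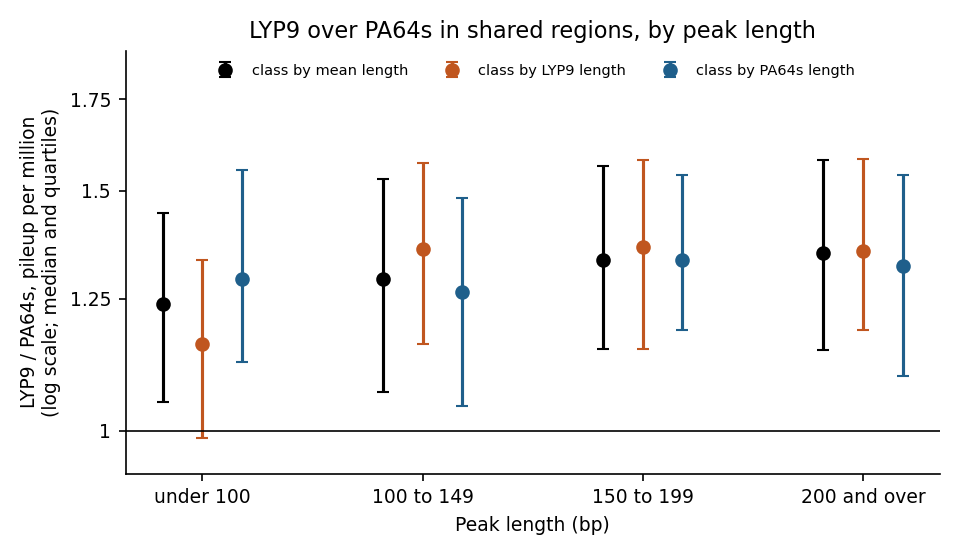
Ratio of LYP9 over PA64s in pileup in ppm (log scale; points are medians, bars are quartiles) for shared regions in 4 classes of peak length in bp, with the class set by the mean length of both peaks (black), the LYP9 length (orange) or the PA64s length (blue). The shortest class is lowest at 1.16 when LYP9 sets the class and stands at 1.29 when PA64s sets it.

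The ratio was then followed along the chromosomes in windows of 1 Mb. The 44 windows with at least 10 shared regions held 903 of them, and the median ratio was above 1 in 41. Window medians had quartiles of 1.24 and 1.42. The highest lay at 14 to 15 Mb of chromosome 9, where all 10 regions were higher in LYP9 and the median ratio was 1.72. Next came 18 to 19 Mb of chromosome 11 with 1.61 over 10 regions, and 7 to 8 Mb of chromosome 10 with 1.58 over 14 regions, among them the pair of unequal regions described above. By fold enrichment these medians were 1.67, 1.03 and 1.15, so that of these windows chromosome 9 alone kept a ratio of that size.

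The 3 windows below 1 were each of another kind. At 4 to 5 Mb of chromosome 9 the median was 0.967 over 10 regions, 5 of them above 1. At 16 to 17 Mb of chromosome 1 it was 0.857 over 14 regions, but the single ratios ran from 0.296 to 5.68. In that window 26 of 40 LYP9 peaks and 29 of 43 PA64s peaks were in one list only. By fold enrichment its median was 1.26, the other way, and PA64s had the higher background, 0.403 against 0.208 ppm.

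The lowest window, at 20 to 21 Mb of chromosome 12, had a median of 0.756 over 23 regions. Of these, 21 lay in a stretch from 20434420 to 20628010, whose limits were chosen after its values were seen. There PA64s was higher than LYP9 in 21 of 21 shared regions, with ratios of 0.586 to 0.953. Pileups ran from 37 to 91 tags in LYP9, with a median of 73, and from 51 to 138 in PA64s, with a median of 112, so the raw counts differed in the same direction at every region. By fold enrichment the median ratio was 0.914.

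On the other 124 shared regions of chromosome 12 the median ratio was 1.27. In 93-11, 20 of the 21 regions were listed, with 35 to 96 tags and a median of 69.5, and LYP9 stood at 0.923 times the 93-11 level in ppm at the median. All 21 PA64s peaks of the stretch were shared, while 12 of 34 LYP9 peaks there were in LYP9 only. One of these was the peak of 93 tags at 20601021. The stretch thus held taller PA64s peaks at shared places and yet more peaks in the hybrid.

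The same steps were run between LYP9 and 93-11 for scale. Both comparisons use the LYP9 library, and the 93-11 list is the longer. LYP9 and 93-11 shared 71.9% of the LYP9 peaks and 63.0% of the 93-11 peaks. Over their 2478 shared regions the median ratio of LYP9 over 93-11 was 0.942, with quartiles of 0.827 and 1.06, and 2 regions were at least 2-fold higher in LYP9 and 4 in 93-11. For LYP9 over PA64s the corresponding values were 1.29, with quartiles of 1.09 and 1.52, and 64 and 17 of 1571 regions. With 1 library per line, a difference between lines and a difference between library preparations cannot be told apart.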

How the data were processed

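Per the labels' protocols, panicle DNA was sheared to 200 to 300 bp, 5hmC was tagged with an azide-bearing glucose and biotin, and tagged fragments were collected on streptavidin. The submitters' processing notes name BWA 0.5.8; the genome build is not stated in any source used. Each library's peaks were called by MACS 2.0.9 at a q-value cutoff of 0.01, with no control and at most 2 tags per position, per the file headers. The pileup is a coverage signal deposited by the authors, in whole tags. The fold enrichment is the authors' ratio of pileup to background. The deposited −log10 p ranked peaks in alternatives, and the −log10 q was not used.

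Pileups were divided by each header's total tags and multiplied by 1000000 (ppm). Background was recovered as pileup divided by fold. Groups of overlapping peaks were shared regions. Shares carry exact binomial 95% intervals, and a ratio carries the exact conditional binomial interval of 2 counts. Pileup maxima are not counts at fixed sites, so these intervals are approximate. A difference of 2-fold was called, since 1 library per line allows no test. Named regions follow a rule by height, ratio and distance from the sharing limit. The comparison and its classes were chosen with earlier results of these data known, and the chromosome 4 and 12 stretches, the clusters on chromosomes 1, 2 and 12, the height classes and the split of shared regions by 93-11 after values were seen. Alternatives changed the overlap rule, height and p limits, list length, chromosomes, measure, fold limit and length basis. The gene table at hand is of another assembly and was not joined. Overlap and ratio routines were tested on simulated data. Calculations used Python 3.11.15, numpy 2.4.6, pandas 2.3.3, scipy 1.17.1 and matplotlib 3.10.9.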

Additional observations from a re-analysis of the deposited data

How the results depend on the processing

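No paired analysis was possible because each line had 1 library. The LYP9 share of 45.4% was 40.5% when 50% of both peaks had to overlap, 51.3% within 500 bp, 56.9% at −log10 p of 20 or more in both lists, 52.6% at 2 or more ppm, 57.7% with lists of equal length and 43.6% without chromosomes 4 and 10. The PA64s share of 66.5% was 59.0%, 71.3%, 82.4%, 82.3% and 58.2% under the first 5 of these. It was above the LYP9 share in each, by little with equal lists. Nearly the same number of peaks is shared from either side, so the shorter PA64s list largely fixes this order, and equal lists give close shares. The median log2 ratio of 0.37 was 0.19 by fold enrichment and 0.41 at −log10 p of 20 or more. The 64 regions higher in LYP9 and 17 higher in PA64s became 14 and 7 at −log10 p of 20 or more (which removes regions low in either list), 14 and 30 after centring, 422 and 34 at 1.5-fold, and 331 and 35 where the exact interval excluded 1. By fold enrichment 7 were higher in PA64s. The log2 step from the shortest to the longest peaks, 0.12, was −0.028 by fold enrichment, 0.23 with LYP9 lengths and 0.030 with PA64s lengths; the cause was not tested. Of 80 values for single chromosomes and length classes under the alternatives, 64 stayed within an interval of the main median and 16 moved, and none changed direction. This interval is not the quartiles given above, which are wider. Of the 16, 13 moved by fold enrichment and the rest at −log10 p of 20 or more. The alternatives of single pairs, 50% overlap and no regions near the ceiling kept 1539, 1414 and 1566 of the 1571 regions. Their pileups were the same, so values there could hardly move. Depth limits low regions: the least-covered region at least 2-fold higher in PA64s, with 11 and 27 tags, had an interval of the ratio that included 1.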
